A study of Danio rerio with 16 samples.

Results

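The genes of the phototransduction cascade, of melatonin synthesis and of the light-sensing opsins of the brain were taken from an RNA-sequencing survey of whole zebrafish brains. Members were chosen by gene name alone, from symbols that begin like opsins, transducin, the light-activated phosphodiesterase (PDE6), the cyclic nucleotide-gated channels, opsin kinases and arrestins, recoverins, guanylate cyclases and their activators, visual cycle enzymes, and the enzymes aanat and asmt. The rule found 44 of the 15304 genes in the table. They were sorted by known role into 10 rod genes, 9 cone genes, 5 genes shared by rods and cones, 4 genes of the pigment epithelium and Müller glia, 2 genes of melatonin synthesis in the pineal organ, 8 opsins of the deep brain and 6 other genes that the name pattern caught. The rule reached no cone opsin (opn1) and no exorh, an opsin of the pineal organ, and these were not analysed here.

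Brains came from zebrafish aged 17 weeks of 4 strains. AB and SH are commercial strains, and HSB and LSB are lines a few generations away from fish caught in the wild, with selection for much (HSB) or little (LSB) stationary behavior. RNA of 10 fish of a strain and sex was combined into a pool, and 2 such pools were made, which gave 16 libraries with 4 for each strain and 8 for each sex. A pool gives a mean over its 10 fish, so the spread among single fish was not measured, and each selected line is a single line. No group was given a treatment, although some of the HSB and LSB fish had been through behavioral tests some weeks before. All fish were adults, and their brains were removed in the morning hours and kept in an RNA preservative.

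In rods and cones, an opsin that has caught light activates transducin, transducin activates PDE6, and the fall in cyclic GMP closes the cyclic nucleotide-gated channel. An opsin kinase and an arrestin then switch the opsin off, while recoverin and guanylate cyclase activators adjust the response through calcium. The pineal organ of fish, which lies on top of the brain, holds photoreceptors that use much of the same cascade and also make melatonin, through aanat2 and then asmt. Neurons deeper in the brain carry other opsins, such as the melanopsins (opn4), encephalopsin (opn3), VA opsins (valop) and teleost multiple tissue opsins (tmtops), and are not photoreceptor cells of the retinal kind.

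Values are CPM: the reads on a gene divided by the reads on all genes of the library and scaled to a total of 1000000. The 16 libraries held 18398865 to 35737825 reads on genes, with a median of 28773428, so that 1 read was worth 0.0280 to 0.0544 CPM. CPM is not corrected for gene length, and levels are therefore compared between libraries and not between genes. Of lists of marker genes, the 3 listed neuron markers present summed to between 1743 and 2258 CPM and 2 radial glia markers to between 2255 and 2696 CPM. The brain label was thus matched by its markers in every library. Skeletal muscle markers (5 of 6 listed genes) summed to 13.6 to 858 CPM and were highest in AB male pool 2, while lens and cornea markers (2 of 14 listed genes) summed to 16.1 to 237 CPM, were highest in LSB female pool 2, and came almost wholly from the keratin krt5. In LSB, the gene dio2, which was higher in both male pools than in both female pools of the other 3 strains, stood at 128 CPM in the library labelled female pool 2 and at 40.1 CPM in the library labelled male pool 2, against 50.4 CPM in female pool 1 and 117 CPM in male pool 1. These 2 libraries thus went against their labels, and results that compare the sexes are also given without them.

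The largest contrast among the members lay between pools of the same strain and sex, and it divided the members by role. Rod, cone and shared genes differed many-fold between the replicate pools of HSB females and of LSB males and less in the other 6 groups (median absolute log2 differences of 0.35 to 1.22), whereas the deep brain opsins had a smaller spread between pools. The 24 rod, cone and shared genes together summed to 30.2 CPM in HSB female pool 1 and to 380 CPM in HSB female pool 2, which are replicate pools, with a median of 174 CPM over the 16 libraries. The 2 pineal genes summed to 2.07 CPM in the first of these pools and to 14.5 CPM in the second, again the lowest and the highest of all libraries. The 8 deep brain opsins summed to 22.5 and 21.7 CPM in the same libraries and to between 19.2 and 26.5 CPM in all 16. The LSB pairs are uncertain, because LSB female pool 2 and LSB male pool 2 went against their labels in dio2. As labelled, the 24 genes summed to 103 and 172 CPM in LSB females and to 196 and 44.2 CPM in LSB males. With these libraries exchanged, the pairs would be 103 and 44.2 CPM in females and 196 and 172 CPM in males. In RNA from whole tissue, fewer cells of a type and less RNA per cell cannot be told apart, which holds for every difference given here.

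**Figure D1:**
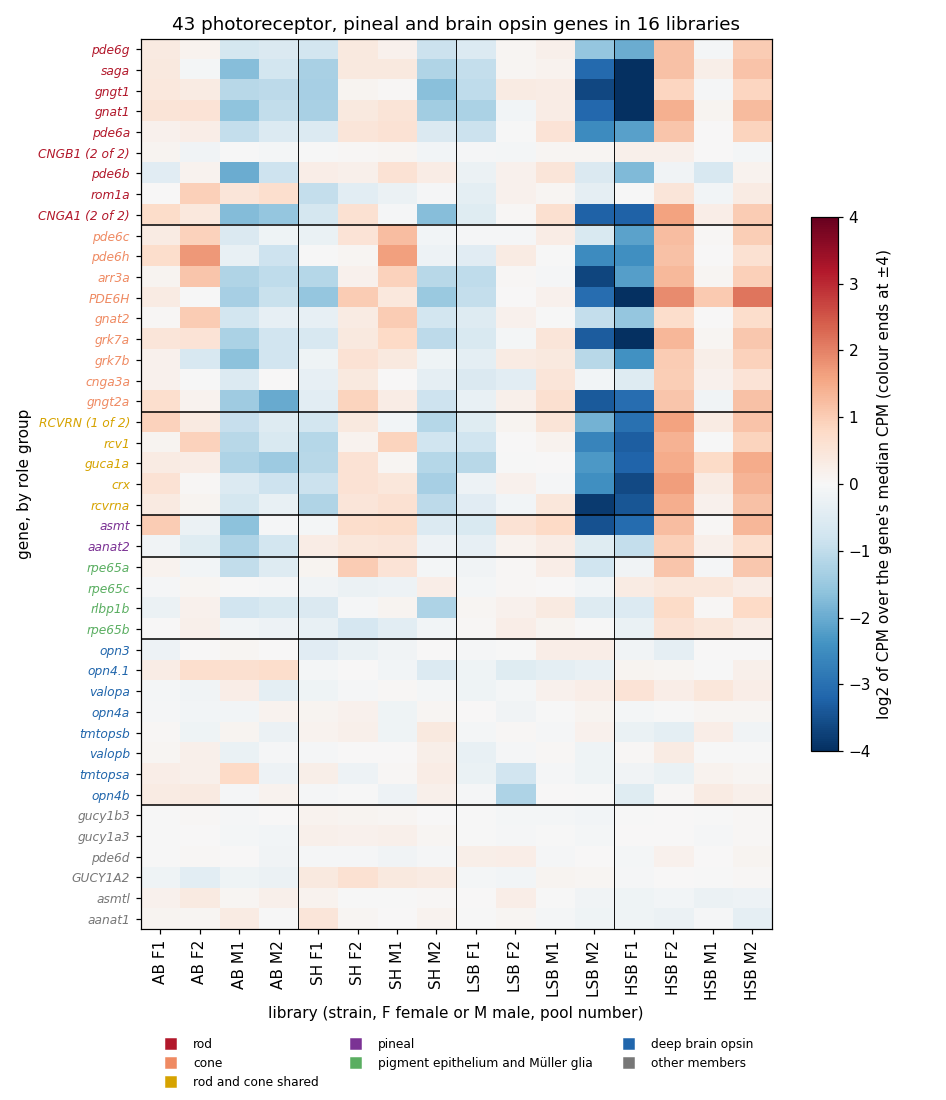
Heat map of 43 of the 44 members (rows, coloured by role group) in the 16 libraries (columns, by strain, sex and pool number). Colour gives the log2 of a gene's CPM over its own median CPM, with the scale ending at 4 in both directions. HSB F1 and LSB M2 are dark blue and HSB F2 and HSB M2 are red for most rod, cone, shared and pineal genes, and the deep brain opsins stay pale.

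The spread between pools was measured for every gene as the residual SD of log2(CPM + 0.5) around the mean of its strain and sex. Its median over all 15304 genes was 0.0994, its 95th percentile 0.251 and its 99th percentile 0.486. The median was 1.03 for rod genes, 0.908 for cone genes, 1.01 for shared genes and 0.899 for the 2 pineal genes. It was 0.159 for the deep brain opsins, with a range of 0.0828 to 0.249, and 0.0852 for the 6 other members. Of the 44 members, 25 lay above the 99th percentile of all genes, namely 8 of 10 rod genes, 8 of 9 cone genes, all 5 shared genes, both pineal genes and 2 of the 4 genes of pigment epithelium and Müller glia. None of the 8 deep brain opsins lay above the 95th percentile. Ranked from the highest SD among all genes, gngt1 (SD 1.63) was number 3, gnat1 (1.61) number 4 and saga (1.59) number 5. These ranks and shares are descriptions and were not tested. They take the LSB labels as given, so a sex difference may be part of the spread in LSB.

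**Figure D2:**
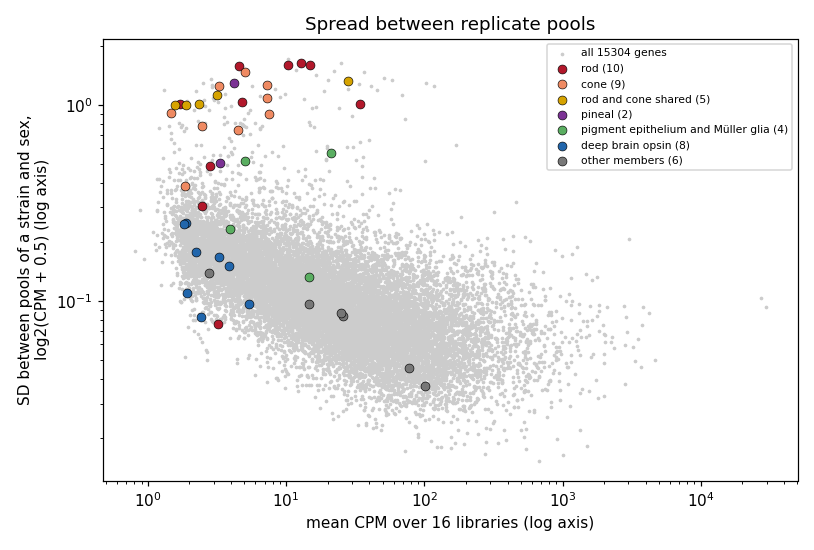
Residual SD between pools of a strain and sex on log2(CPM + 0.5) (y axis, log scale) against mean CPM over 16 libraries (x axis, log scale) for all 15304 genes in grey and the 44 members coloured by role. Most rod, cone, shared and pineal genes lie above 0.486, the 99th percentile of all genes, and the 8 deep brain opsins lie between 0.0828 and 0.249.

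Among the rod genes, gnat1 (ENSDARG00000044199) encodes the alpha subunit of rod transducin. In the female pools 1 and 2, gnat1 had 14.6 and 14.9 CPM in AB, 4.14 and 13.4 CPM in SH, 4.24 and 9.51 CPM in LSB, and 0.450 and 27.7 CPM in HSB. In the male pools 1 and 2 it had 3.38 and 5.25 CPM in AB, 14.6 and 3.91 CPM in SH, 12.7 and 1.18 CPM in LSB, and 11.1 and 25.0 CPM in HSB. The pools of a strain and sex were closest in AB females, and the lowest and the highest value came from the 2 pools of HSB females. Between those pools, which held 13 and 510 reads of gnat1, the ratio was 61.7 (exact 95% interval 35.7 to 117, counting error only).

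The other abundant rod genes followed the same libraries. The gene saga (ENSDARG00000012610), which encodes the arrestin of rods, had 0.692 CPM in HSB female pool 1, 1.84 CPM in LSB male pool 2 and otherwise 4.88 to 35.8 CPM, with the highest value in HSB female pool 2. The gene pde6g, for the inhibitory gamma subunit of PDE6, ran from 8.78 to 77.6 CPM in the same 2 HSB female pools, with a median of 34.5 CPM. The gene gngt1, for the gamma subunit of rod transducin, had 0.450 CPM in HSB female pool 1, 26.5 CPM in HSB female pool 2 and 26.9 CPM in HSB male pool 2, its highest value. These 3 genes were thus lowest in HSB female pool 1, as gnat1 was. The catalytic subunits of PDE6 ran from 0.831 to 10.3 CPM for pde6a and from 0.767 to 4.55 CPM for pde6b. The rod channel subunit CNGA1 (2 of 2), named in the table after its human counterpart, ran from 0.173 to 4.95 CPM.

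Not every member listed as a rod gene behaved this way. The channel subunit CNGB1 (2 of 2) stayed between 2.87 and 3.64 CPM in all 16 libraries, with an SD between pools of 0.0765 on the log2 scale, lower than that of most genes of the table. The gene rom1a, for a protein of the rod disk rim, had an SD of 0.306 and lay between the other rod genes and the bulk of the table. Its lowest value was in SH female pool 1, and its strain difference is given further on.

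Most cone genes were lowest in HSB female pool 1 or LSB male pool 2, where the abundant rod genes were also low. Their highest values were divided among more libraries. The cone PDE6 catalytic subunit pde6c had 1.38 CPM in HSB female pool 1, a median of 6.10 CPM and its highest values in SH male pool 1 and HSB female pool 2, both 14.3 CPM. The cone arrestin arr3a had 0.554 CPM in LSB male pool 2, 1.56 CPM in HSB female pool 1 and 17.5 CPM in HSB female pool 2. The gene pde6h, for a cone PDE6 inhibitory subunit, was highest in AB female pool 2 (18.9 CPM) and SH male pool 1 (17.6 CPM). Its relative listed as PDE6H was highest in HSB male pool 2 (17.5 CPM) and had 3.92 CPM in AB female pool 2. The 2 copies thus peaked in different libraries, with a pde6h to PDE6H ratio from 0.492 in HSB male pool 2 to 5.0 in HSB female pool 1, where PDE6H had 6 reads. Reads that fit both copies could have been dropped or given to a single copy, so the ratio is uncertain. Cone transducin gnat2 ran from 1.42 to 8.52 CPM, with its highest values in AB female pool 2 (8.52 CPM) and SH male pool 1 (8.51 CPM). The cone opsin kinases grk7a and grk7b ran from 0.138 to 7.88 CPM and from 0.450 to 4.89 CPM. The cone channel subunit cnga3a had the smallest range of the cone genes, from 1.20 to 3.53 CPM, and gngt2a, a cone transducin gamma subunit, had 0.139 to 3.19 CPM.

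Of the role groups, the 5 genes used by both kinds of photoreceptor had the highest median r within the group, 0.944 over their 10 pairs. Their pairs ran from 0.914 to 0.968. Some pairs outside this group were closer, such as the cone gene grk7a with the rod gene gnat1 (r = 0.991). Recoverin, a calcium sensor that acts on opsin kinase, was listed as RCVRN (1 of 2) and had 3.18 CPM in HSB female pool 1 and 75.9 CPM in HSB female pool 2, with a median of 25.2 CPM. The further recoverins rcv1 and rcvrna, the guanylate cyclase activator guca1a and crx, the transcription factor of photoreceptors and pinealocytes, had highest values of 4.08 to 7.94 CPM. In HSB female pool 1 the 5 genes had 0.138 to 3.18 CPM, and the ratio of pool 2 to pool 1 in HSB females was 23.8 to 38.9. The 95% counting intervals of all 5 ratios excluded 1.

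In melatonin synthesis, asmt (ENSDARG00000075320) encodes the last enzyme and aanat2 (ENSDARG00000079802) the enzyme before it, whose activity in the fish pineal follows the daily rhythm. In the female pools 1 and 2, asmt had 7.05 and 3.02 CPM in AB, 3.33 and 5.71 CPM in SH, 2.31 and 5.24 CPM in LSB, and 0.415 and 8.32 CPM in HSB. In the male pools 1 and 2 it had 1.12 and 3.43 CPM in AB, 5.80 and 2.39 CPM in SH, 6.07 and 0.312 CPM in LSB, and 3.61 and 8.82 CPM in HSB. As for the rod genes, HSB female pool 1 and LSB male pool 2 were far below all others, at 12 reads of asmt in the first and 153 reads in its replicate, HSB female pool 2. The gene aanat2 had a narrower range, from 1.36 CPM in AB male pool 1 to 6.20 CPM in HSB female pool 2, with a median of 3.21 CPM. Its 3 lowest values were 1.36 and 1.91 CPM in the AB male pools and 1.66 CPM in HSB female pool 1.

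The direction of the pool differences was shared across the 24 rod, cone and shared genes. In HSB females all 24 were higher in pool 2, with a median log2 difference of 3.04, where the median absolute difference over all genes was 0.107. In LSB males 23 of 24 were higher in pool 1, by a median of 2.00. In SH males 23 of 24 were higher in pool 1, and in SH females, LSB females and HSB males 23 of 24 were higher in pool 2, with medians between 0.59 and 1.22 in size. In AB males 19 of 24 were higher in pool 2, and in AB females 11 of 24. AB females were thus the group without a common direction. The pool numbers have no order, so that only the agreement within a pair carries meaning, and the 24 genes of a library are not independent of each other. The LSB pairs also rest on labels that LSB female pool 2 and LSB male pool 2 went against. HSB female pool 2 had the fewest reads of all libraries (18398865) and HSB female pool 1 had 28918606, and the part of depth in these differences was not tested.

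The pineal gene asmt and most photoreceptor genes moved together over the libraries. Correlations of log2(CPM + 0.5) were computed for asmt with the other 43 members, within a family of 85 relations (p-values came from 100000 permutations of the libraries, with Benjamini-Hochberg adjustment over the 85). The reference gene asmt was picked after its values had been seen, and the libraries share strains and pools, so that the permutation p-values treat as exchangeable libraries that are not fully so. Over 16 libraries, asmt correlated with saga at r = 0.953 (adjusted permutation p = 7.73e-05) and Spearman's coefficient = 0.929 (adjusted permutation p = 7.73e-05). The permutation p before adjustment was 1e-05 for both, the smallest that 100000 permutations allow. Without LSB male pool 2 and HSB female pool 1, the libraries farthest from the median of asmt, r was 0.908. With gnat1 it had r = 0.934 (adjusted permutation p = 7.73e-05) and Spearman's coefficient = 0.865 (adjusted permutation p = 0.000155), and r = 0.863 without the same libraries. Of the 24 rod, cone and shared genes, 21 correlated with asmt with an adjusted permutation p under 0.05, all positively, with a median r of 0.887 over the 24 and r above 0.9 for 10 of them. The 3 that did not included rom1a and CNGB1 (2 of 2). For the other pineal gene, aanat2, r was lower with saga (0.753) and gnat1 (0.743) and was 0.937 with the cone gene grk7b. These relations of aanat2 were not tested.

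Between asmt and aanat2, r was 0.786 (adjusted permutation p = 0.00115) and Spearman's coefficient was 0.835 (adjusted permutation p = 0.000368), and r was 0.828 without LSB male pool 2 and HSB female pool 1. The relations were also measured on the 8 differences between the pools of a strain and sex, which remove strain and sex as labelled. Sex may remain in the LSB pairs, where LSB female pool 2 and LSB male pool 2 went against their labels. No value was computed without the LSB pairs. The value called r for these differences is uncentred: their mean was not subtracted, unlike for the 16 libraries. There, asmt and aanat2 had r = 0.944 and went the same way in 8 of 8 pairs (exact permutation p = 0.00781, the smallest that 8 pairs allow, 0.0350 after adjustment over the 85 relations). For saga the value was r = 0.954, also with the same direction in 8 of 8 pairs (exact permutation p = 0.00781, adjusted 0.0350). For gnat1 it was r = 0.938, with the same direction in 7 of 8 pairs (exact permutation p = 0.0156, adjusted 0.0531). On pool differences, 9 of the 24 rod, cone and shared genes had an adjusted p under 0.05, and the median r of the 24 was 0.910. The log2 difference of asmt was 3.27 in HSB females and 3.02 in LSB males in size, against 0.696 to 1.28 in the other groups. These largest differences weigh most in r, which was not computed without them.

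The deep brain opsins had no called relation with asmt. Their r ran from -0.364 for opn3 to 0.414 for valopb over the 16 libraries, with none of the 8 under an adjusted permutation p of 0.05. For opn4a, r was -0.0320 (adjusted permutation p = 0.937) and Spearman's coefficient was -0.0324 (adjusted permutation p = 0.920), and r was 0.0278 without LSB male pool 2 and HSB female pool 1. Among the 28 pairs of deep brain opsins, the median r was 0.0002, against 0.944 among the 10 pairs of shared photoreceptor genes. Single pairs of these opsins ran from -0.406 to 0.581. With rod, cone and shared genes the median r of the deep brain opsins was -0.0770, -0.0936 and -0.0723. Single pairs with rod genes ran from -0.508 to 0.626, and these pairs were not tested. By these medians no common movement of the deep brain opsins as a set was seen, with the photoreceptor genes or with each other, which does not hold for every pair. At 0.780 to 6.68 CPM each of their values rests on 21 to 209 reads. Counting error at such depths lowers a correlation, so the low medians cannot show whether these opsins vary together.

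**Figure D3:**
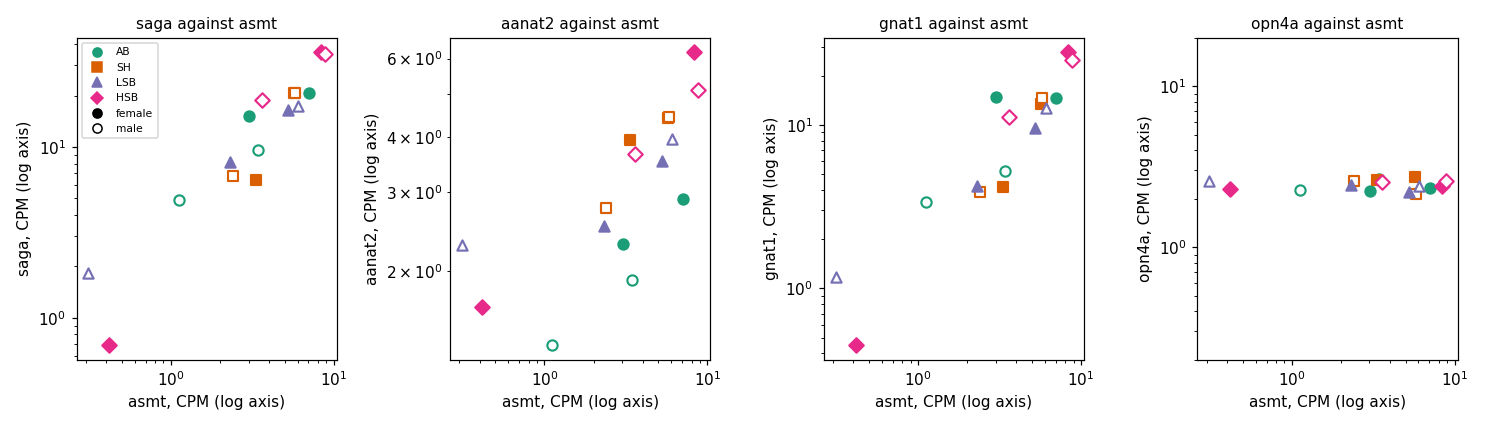
CPM of saga, aanat2, gnat1 and opn4a (y axes, log scale) against CPM of asmt (x axes, log scale), 1 point per library, by strain (colour and shape) and sex (filled female, open male). The points rise together for saga (r = 0.953 on log2(CPM + 0.5)), aanat2 (r = 0.786) and gnat1 (r = 0.934), and opn4a stays between 2.15 and 2.72 CPM.

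Genes outside the name pattern were ranked by the correlation of log2(CPM + 0.5) with the mean standardised profile of the rod and cone members over 16 libraries, as a measure of likeness only. Of the first 10, 9 were cplx4a (r = 0.970), irbp (0.967), syt5a (0.959), si:ch211-265g22.4 (0.955), the gene now named unc119c (0.953), si:ch211-263p13.7 (0.951), zgc:73075 (0.948), pdcb (0.945) and rdh5 (0.939). Of these, irbp is the retinoid-binding protein of the space around photoreceptors, pdcb is a phosducin, which binds transducin, and rdh5 is a retinol dehydrogenase of the visual cycle. The 5 most like the mean of the pineal members were si:ch211-263p13.7 (0.939), glmnb (0.936), unc119c (0.930), syt5a (0.919) and si:ch211-245j22.3 (0.916), of which 3 are also among the first 10.

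Under current gene names, 9 genes of the table have a symbol that the pattern would have reached, although the table lists them under other names. BX571969.1, now parapinopsinb, a pineal opsin, ran from 0.173 CPM in HSB female pool 1 to 3.02 CPM in SH female pool 2. zgc:73075, a further recoverin, ran from 1.28 to 38.0 CPM in the 2 HSB female pools. A cyclase of photoreceptors listed as gc3, now gucy2d, ran from 1.04 CPM in LSB male pool 2 to 5.79 CPM in AB female pool 1, with 2.21 CPM in HSB female pool 1. The others were zgc:162232, now asmt2, between 16.4 and 25.7 CPM, and 5 brain opsins. Of these, CU468896.1, now tmtops2a, lay between 3.98 and 6.64 CPM, si:ch211-259i2.2, now tmtops2b, between 2.07 and 3.36 CPM, AL929434.2, now tmtops3a, between 1.79 and 3.98 CPM, si:dkey-72l14.7, now opn7c, between 2.66 and 3.80 CPM, and si:ch211-223f7.1, now opn8b, between 2.16 and 4.14 CPM. The highest value was 17.5 times the lowest for the pineal opsin, 29.7 times for the recoverin, 5.57 times for gc3 and 1.43 to 2.23 times for asmt2 and the 5 brain opsins.

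Marker genes of the retina and of the pineal organ that the pattern does not hold were read beside these results. Of 19 listed retina genes, 5 were found in the table under their listed symbols, and they summed to between 209 and 257 CPM. Most of this sum came from unc119b (mean 125 CPM) and prom1b (42.9 CPM), whose expression is not limited to the retina. Of the others, rd3 had 22.0 and 26.4 CPM and rdh8a 31.5 and 32.6 CPM in HSB female pools 1 and 2. In the same pools abca4a, a transporter of the photoreceptor outer segment, had 4.29 and 7.66 CPM. The listed gene rbp3 stands in the table under the name irbp, so it was left out of the count and sum of the 5. It is also among the genes picked above for their likeness to the rod and cone members. This gene had 0.553 CPM in HSB female pool 1 and 27.1 times as much in HSB female pool 2. By group the sums of the 5 listed genes were 209 to 217 CPM in AB females, 212 to 213 in AB males, 246 to 250 in SH females, 234 to 257 in SH males, 228 to 240 in LSB females, 216 to 229 in LSB males, 214 to 230 in HSB females and 222 to 224 in HSB males. Of 4 listed pineal genes, tph2 and bsx were in the table, and both have other sources in the brain. Their sum was lowest in LSB male pool 2 (22.2 CPM) and highest in HSB female pool 2 (38.4 CPM), against 23.8 CPM in HSB female pool 1. Elsewhere it was 24.9 to 32.9 CPM in AB females, 25.4 in both AB male pools, 25.9 to 28.4 in SH females, 23.9 to 29.0 in SH males, 26.0 to 28.8 in LSB females, 30.9 in LSB male pool 1 and 26.5 to 35.0 in HSB males. The lens crystallin crybb3 was low in all libraries (1.18 to 3.22 CPM). It had 3.22 and 2.12 CPM in HSB female pools 1 and 2, and 2.68 and 2.49 CPM in HSB male pools 1 and 2. Of 8 listed pigment cell markers, 3 were in the table, and they summed to 9.02 to 9.09 CPM in the HSB female pools. How far eye or pineal tissue in a pool shares in the pool differences was not tested.

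The 4 genes of pigment epithelium and Müller glia were split. The gene rpe65a, for the isomerase of the visual cycle, ran from 9.28 CPM in AB male pool 1 to 39.1 CPM in HSB female pool 2, and it correlated with asmt at r = 0.770 (adjusted permutation p = 0.00218) and Spearman's coefficient = 0.894 (adjusted permutation p = 1e-04), with r = 0.849 without LSB male pool 2 and HSB female pool 1. The gene rlbp1b, a retinaldehyde-binding protein known from Müller glia, ran from 2.18 to 8.90 CPM. The copies rpe65b and rpe65c moved much less between pools, with residual SDs of 0.232 and 0.133, against 0.570 for rpe65a. In HSB females, rpe65a had 16.4 and 39.1 CPM in pools 1 and 2, while rpe65c had 17.4 and 18.8 CPM. Reads shared by the 3 copies may have been dropped or given to a single copy, so their levels are uncertain.

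The first comparison of the design asks whether expression differed among the 4 strains, with sex as a further term. In limma, a linear model fitted to log2(CPM + 0.5) of every gene, 11 of the 44 members passed a Benjamini-Hochberg adjusted p of 0.05 in the strain test, where 61.5% of all genes did. The members past the threshold were 3 of 8 deep brain opsins (opn3, opn4.1 and valopa), 2 of 4 pigment epithelium and Müller glia genes (rpe65b and rpe65c), 1 of 10 rod genes (rom1a) and 5 of 6 other members. Without regard to adjustment, 13 members had a p under 0.05, against 66.8% of all genes. None of the 9 cone genes, 5 shared genes and 2 pineal genes passed, which are groups with a wide spread between pools.

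Among the deep brain opsins, opn4.1 (ENSDARG00000007553), a melanopsin, had the clearest strain pattern. It had 4.44, 5.73, 5.65 and 5.85 CPM in AB, 3.47, 3.65, 3.33 and 2.48 CPM in SH, 3.21, 2.60, 2.75 and 2.94 CPM in LSB, and 3.94, 3.80, 3.61 and 4.17 CPM in HSB. All 4 AB libraries lay above the 12 others. The log2 difference of AB from the mean of the other strains was 0.63 (SE 0.09, limma adjusted p = 1.38e-04), LSB differed by -0.44 (adjusted p = 0.00208, limma), and the adjusted p over all strains was 1.33e-04. The AB difference and the test over strains remained past the threshold in all 23 alternative fits. The mean was 5.42 ± 0.66 CPM in AB, 3.88 ± 0.24 in HSB, 3.23 ± 0.52 in SH and 2.88 ± 0.26 in LSB (SD, n = 4 libraries each), and the ranges of SH and LSB overlapped.

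The other 2 called opsins differed less. The VA opsin valopa (ENSDARG00000021150) had 4.46, 3.70, 4.25 and 3.68 CPM in HSB and 2.34 to 3.70 CPM in the other strains, so that the ranges overlapped slightly. HSB exceeded the others by 0.36 (log2, standard error 0.10, adjusted p = 0.0151 from limma), and the call was lost without HSB female pool 1 (0.30, adjusted p = 0.0825) and without HSB male pool 1 (0.35, adjusted p = 0.0521). The encephalopsin opn3 (ENSDARG00000052775) had 5.31, 5.50, 6.61 and 6.68 CPM in LSB, where it was highest, and 4.03, 4.62, 4.99 and 5.59 CPM in SH, where it was lowest, and the 2 strains overlapped. LSB exceeded the others by 0.21 (log2, standard error 0.06, adjusted p = 0.0169 from limma), and without both LSB pools numbered 2 the adjusted p was 0.119. The test of opn3 over all strains gave an adjusted p of 0.0194 with all libraries, 0.0529 without SH female pool 1, 0.0836 without both LSB pools numbered 2 and 0.198 without LSB (limma). The remaining opsins opn4a, opn4b, valopb, tmtopsa and tmtopsb did not pass the strain test, with adjusted p from 0.0783 for tmtopsa to 0.903 for opn4a (limma).

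Of the rod and glial members, rpe65c (ENSDARG00000054420), a copy of the isomerase known from Müller glia, was high in HSB. It had 17.4, 18.8, 18.9 and 17.0 CPM in HSB and 11.9 to 16.7 CPM in the 12 other libraries, with no overlap. The difference was 0.40 (log2, standard error 0.07, adjusted p = 9.18e-04 from limma) and it passed in all 23 alternative fits. The copy rpe65b was lowest in SH, at 2.45 to 3.61 CPM, by -0.42 (log2, standard error 0.12, adjusted p = 0.0105 from limma), and it overlapped with the other strains. This call was lost without SH female pool 2 (adjusted p = 0.0636 from limma), and the test of rpe65b over all strains (0.0230) was lost without SH female pool 2 (0.0857), SH male pool 1 (0.0602) or HSB male pool 1 (0.0534). The gene rom1a had 2.29, 4.41, 3.17 and 3.64 CPM in AB and 1.18, 1.69, 1.93 and 2.18 CPM in SH, which did not overlap with each other. AB exceeded the others by 0.55 (log2, standard error 0.15, adjusted p = 0.0146 from limma), and the adjusted p was 0.0925 without AB female pool 2 and 0.0516 without AB male pool 2.

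The 6 other members are not part of the photoreceptor cascade, and 5 of them passed the strain test. Of these, 3 encode subunits of soluble guanylate cyclase, the receptor for nitric oxide. GUCY1A2 had 31.2, 36.2, 31.2 and 30.0 CPM in SH and 17.8 to 25.5 CPM elsewhere, and SH exceeded the others by 0.51 (log2, standard error 0.06, adjusted p = 6.19e-06 from limma). The gene gucy1a3 had 88.1, 85.1, 88.5 and 81.0 CPM in SH and 71.4 to 78.1 CPM elsewhere, a difference of 0.19 (standard error 0.03, adjusted p = 1.60e-04 from limma). In both genes all SH libraries lay above all others, and both remained past the threshold in all 23 alternative fits. The third, gucy1b3, differed by 0.10 (adjusted p = 0.0130 from limma), which fell to 0.04 with an adjusted p of 0.292 when libraries were rescaled by their median ratio, and was 0.0598 without SH female pool 1. The asmt-like gene asmtl was lowest in HSB, at 12.2 to 13.2 CPM against 12.9 to 18.1 CPM elsewhere, by -0.26 (log2, standard error 0.06, adjusted p = 0.00440 from limma). The gene aanat1, known mainly from the retina of fish, had 2.12 to 2.59 CPM in HSB and 2.39 to 3.81 CPM elsewhere, and passed the test over strains narrowly (adjusted p = 0.0447 from limma), a call that was lost without HSB female pool 1 (adjusted p = 0.0783). The gene pde6d, a chaperone of lipid-anchored proteins, had 23.0 to 30.3 CPM and did not pass (adjusted p = 0.0886 from limma).

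**Figure D4:**
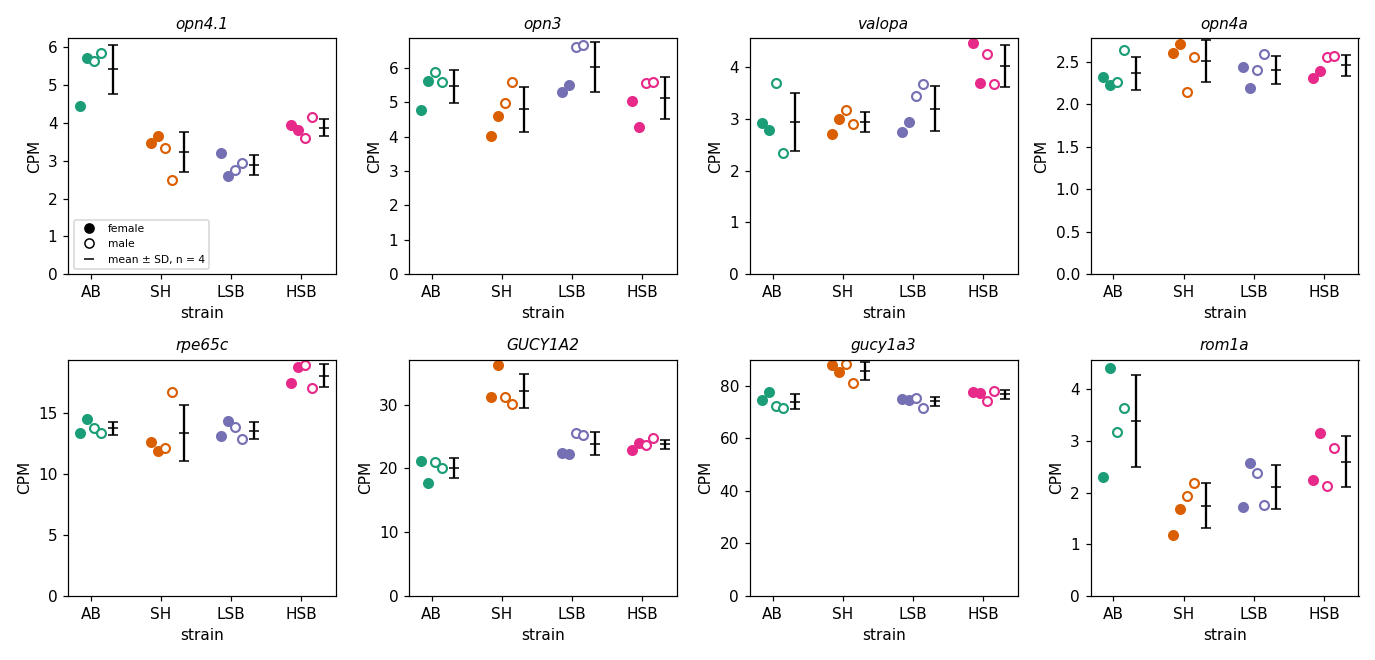
CPM of 8 members in the 4 strains, 1 point per library (filled female, open male), with the mean and SD of 4 libraries beside the points. AB lies above the other strains for opn4.1 (4.44 to 5.85 CPM), HSB for rpe65c (17.0 to 18.9 CPM) and SH for GUCY1A2 (30.0 to 36.2 CPM) and gucy1a3, while opn4a stays between 2.15 and 2.72 CPM in all strains.

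By strain, each set against the mean of the other 3 with the same model, 5 members passed the threshold for AB (23.6% of all genes did), 8 for SH (47.4%), 4 for LSB (37.5%) and 3 for HSB (16.8%). Of the 10 rod genes, 2 passed for SH, 1 higher and 1 lower there, although only rom1a passed the test over strains. The 4 comparisons share libraries and are not independent. For SH the count was 4 without SH female pool 1. Over all genes, 7249 passed for SH with all libraries and 5663 to 7655 with 1 library left out. For LSB the count was 2 without LSB female pool 2, where calls over all genes also fell, from 5746 to 4247.

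The counts for HSB rested on HSB female pool 1, the library with the least photoreceptor RNA. It was singled out for its low values of these same genes, so leaving it out raises the HSB means of these genes by construction. Leaving it out also raises the mean that AB is compared with, and it lowers the standard error for aanat2 and for the cone genes. For PDE6H in HSB against the others, the standard error fell from 0.69 to 0.48. The adjusted p-values and counts without it, also for AB and over all strains, describe this dependence. They do not show that HSB is higher, that AB is lower or that the strains differ. Without HSB female pool 1, 13 members instead of 3 passed for HSB against the other strains, where 12.3% of all genes passed. Of the 13, 12 were higher in HSB (5.65% of all genes were called higher). Of these 13, 2 had been called with all libraries, and the 11 that were gained were 2 cone genes, 2 rod genes, 3 shared genes, 3 genes of pigment epithelium and Müller glia, and aanat2. Among them, guca1a was higher by 1.58 (log2, standard error 0.33, adjusted p = 0.00601 from limma, against 0.75 and 0.340 with all libraries). The test over all strains called 19 members without this library instead of 11 (59.1% of all genes), and 9 were called in both fits. For aanat2, AB lay below the other strains by -0.78 (log2, standard error 0.15, adjusted p = 0.00203 from limma) without HSB female pool 1 and by -0.66 (standard error 0.23, adjusted p = 0.0531) with it. The same difference passed in 4 of 23 alternative fits, also without SH male pool 2 (adjusted p = 0.0469 from limma), LSB male pool 2 (0.0464) or LSB (0.0290). In the remaining fits it did not pass, and without AB male pool 1 the adjusted p from limma was 0.205. For AB against the others, 8 members instead of 5 passed without HSB female pool 1 (22.4% of all genes). Leaving out any other library gave 9 to 12 members in the test over strains and 2 or 3 for HSB. Over all 15304 genes, the fits without 1 library called 8261 to 9827 over strains and 1880 to 3298 for HSB.

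**Figure D5:**
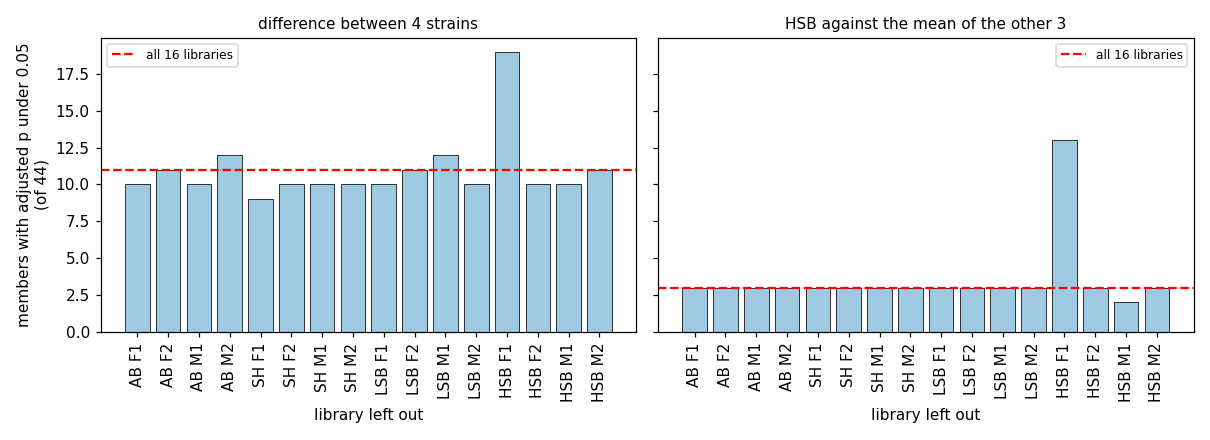
Number of the 44 members with a Benjamini-Hochberg adjusted p under 0.05 in limma (y axis) when the library on the x axis is left out, for the test over 4 strains and for HSB against the mean of the other 3. The dashed line is the count with all 16 libraries (11 and 3), and the bar for HSB F1 reaches 19 and 13.

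The comparison the study was built on is that of males with females, with strain as a further term. None of the 44 members passed the adjusted threshold in limma, where 0.0392% of all genes did, and 3 had an unadjusted p under 0.05, against 10.2% of all genes. These were opn3, asmtl and pde6d. The level of opn3 was 4.90 ± 0.57 CPM over the 8 female libraries (SD) and 5.82 ± 0.57 CPM over the 8 male libraries (SD). The male minus female log2 difference was 0.23 (standard error 0.06, adjusted p = 0.173 from limma). Within AB, SH and HSB, the males exceeded the females by 0.13, 0.26 and 0.24 (log2). The value of 0.28 in LSB rests on the 2 libraries that went against their labels, at 5.50 CPM in the one labelled female pool 2 and 6.68 CPM in the one labelled male pool 2, and with these exchanged the sexes would overlap in LSB. Over the 23 alternative fits, which include those without both libraries and without LSB, the difference was 0.21 to 0.26 and did not pass. For asmt the sexes overlapped widely, with values of 0.415 to 8.32 CPM in females and 0.312 to 8.82 CPM in males, and the log2 difference was -0.23 (SE 0.51, limma adjusted p = 0.901). The standard error was smaller for aanat2 (0.20), so the size of sex difference that could have been detected differed between members.

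The sex difference of members stayed below the threshold without both LSB pools numbered 2, without LSB and in each fit without 1 library, where 0 members passed every time. Over all genes, the sex test called 6 with all libraries, 80 without both LSB pools numbered 2, 109 without LSB and 52 without LSB female pool 2 alone (limma). The interaction of sex and strain was past the threshold for 0 of 44 members in limma, where 0.0327% of all genes passed, and 0 members had an unadjusted p under 0.05, against 16.6% of all genes.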

How the data were processed

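RNA of 16 pools was sequenced as single-end reads. The authors aligned the reads with GSNAP to the Zv9 genome, counted them per gene with HTSeq and deposited CPM values for 15304 genes, each with a CPM over 1 in at least 4 libraries. Columns were assigned to samples by strain, sex and pool number, and 0 columns of other samples were present. In every library 100% of values below 500 CPM were whole multiples of 1 read (within 0.05 reads). This gave the depths, read counts and counting intervals printed here, and count tests were not run.

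limma 3.58.1 in R 4.3.3 (lmFit, eBayes with trend) was fitted to log2(CPM + 0.5) of all genes, so fold changes are on that scale and understate changes of low genes. Models held strain and sex, p-values were adjusted over all genes and the threshold was 0.05. The residual SD came from a model with 8 strain and sex groups. Correlations over libraries used 100000 permutations (seed 1). Those on pool differences were uncentred and used exact exchanges of the pool numbers within 8 pairs. Counting intervals of ratios are exact 95% binomial intervals and cover counting error only. Other steps used Python 3.11.15, scipy 1.17.1 and matplotlib 3.10.9. The code was tested on simulated data.

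Members, role groups and marker lists were chosen with earlier results of these data known. Library values are given for the 3 members with the highest mean CPM in each role group and for the 10 members with the smallest p in the strain test, and for outside genes the 10 and 5 most like the members. Other genes and libraries were named after their values had been seen. Results that need 1 member or 1 of these outside genes, including the other 42 of the 85 correlations, are not reported here; counts and sums over members include that member. Whether the 2 pools of a group came from separate tanks was not given in the sources used here, so p-values measure only the spread between these pools. Of the 44 members, 38 had a symbol in the current name list, and its build differs from Zv9, so no coordinates are given. Pool numbers were not taken to pair the samples. Alternatives were added constants of 0.1 and 1, a mean CPM of at least 1, rescaling by median ratio, the replicate number as a block, leaving out each library, both LSB pools numbered 2, or LSB, and, for correlations and added after seeing the data, pairs of libraries.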

Additional observations from a re-analysis of the deposited data

Results flagged for a closer look

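For 31 named members and role sums, 186 groups of 4 or 8 libraries were looked at, and 7 held a library far from the others, where chance gives 9.3 (1 in 20). In SH male pool 1, pde6h had 17.6 CPM, the highest of the SH libraries (the next had 5.98 CPM) and also of the 8 male libraries (the next had 8.62 CPM). In AB female pool 1, opn4.1 had 4.44 CPM, the lowest of the AB libraries, with the next at 5.65 CPM. In SH male pool 1, pde6d had 23.0 CPM, the lowest of SH, with the next at 24.4 CPM. In SH male pool 2, rpe65c had 16.7 CPM, the highest of SH, with the next at 12.6 CPM. In HSB female pool 2, rlbp1b had 8.86 CPM, the highest of the female libraries, with the next at 5.85 CPM. The summed CPM of the 4 pigment epithelium and Müller glia genes was 68.8 in HSB male pool 2, the highest of the male libraries, with the next at 47.2.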

How the results depend on the processing

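For the members named in the text, no direction of a called result turned under any alternative. Apart from the fits without a single library, which are given below, the number of members past the threshold changed by more than 1.5 times in 2 comparisons. These were LSB (4 with all libraries, 1 without both LSB pools numbered 2, where all genes went from 5746 to 3909) and HSB (3, and 5 without LSB). Over all genes the number past the threshold went from 6 to 80 without both LSB pools numbered 2 and 109 without LSB for sex. It went from 3611 to 5650 for AB and from 2574 to 4667 for HSB without LSB, and from 5 to 0 for the interaction with the replicate block. The samples share only a number (the correlation of the deviations of same-numbered female and male pools was 0.07 in AB, -0.09 in SH, -0.21 in LSB and 0.31 in HSB), and with the replicate block the strain test called 11 members, as without it. With single libraries left out, members called numbered 0 to 0 for sex and for the interaction, 9 to 19 for strain, 4 to 8 for AB, 4 to 9 for SH, 2 to 5 for LSB and 2 to 13 for HSB. All genes called numbered 5 to 52 for sex, 8261 to 9827 for strain, 2633 to 4438 for AB, 5663 to 7655 for SH, 4247 to 6104 for LSB, 1880 to 3298 for HSB and 0 to 1947 for the interaction. HSB female pool 1 gave the highest member counts for strain, AB and HSB, SH female pool 1 the lowest for SH and LSB female pool 2 the lowest for LSB. The cause of these changes was not tested. Many members lie at a few CPM, and crx in HSB female pool 1 rests on 4 reads, so small differences of low members could be missed. Some low members with a small spread between pools, such as opn3, passed the strain test all the same. The part of depth in this was not tested.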
